A study of Arabidopsis thaliana with 14 samples.

Results

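The 41 loci described here encode proteins of the large (60S) subunit of the cytosolic ribosome of Arabidopsis thaliana, and were chosen by a list of gene codes. They make up 18 protein families, L3 to L28 and the stalk protein P0, and 15 of the families have more than 1 locus on the list. Of the 41 loci, 40 had poly(A) tags at a site listed in all 4 poly(A) tables, among 10036 genes of the whole data set. The study compared 12-day-old seedlings of cpsf70, a mutant of the m6A-binding form of the cleavage and polyadenylation factor CPSF30 (locus AT1G30460), with the wild type Col0, 2 libraries of each for poly(A) sites (sequenced by A-seq2, which reads transcript 3′ ends) and 2 of each for RNA-seq. Protein-bound RNA was mapped by CLIP in 12-day-old seedlings that overexpress FLAG-tagged CPSF70, in 2 libraries, and m6A was mapped in 14-day-old Col0 seedlings, in 2 libraries. All were grown under 16 h of light and 8 h of darkness at 22 °C. The sources used here do not say whether replicates came from separate plants grown apart, so p-values measure only the spread between these libraries, and neither the mutant allele nor the promoter of the overexpression line is named in them.

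Ribosomal proteins of the large subunit surround the catalytic RNA that forms the peptide bond, line the tunnel through which the new chain leaves, and form the stalk that recruits elongation factors. In Arabidopsis each of these proteins is encoded by several near-equivalent genes, called paralogues, and single paralogues have been recovered in screens for leaf, embryo and gynoecium defects. CPSF30 belongs to the complex that recognises polyadenylation signals in the 3′ end of a pre-mRNA, and its long form carries a YTH domain that binds N6-methyladenosine (m6A). Each poly(A) tag is taken to mark the 3′ end of 1 transcript, which was not checked here for tags inside genes. The levels below, in TPM (tags scaled to the size of the library), are therefore compared between genes without dividing by length. The family of each locus follows the standard nomenclature of Arabidopsis ribosomal proteins, since the annotation table names 15 of the 41, and what is said of a protein's place in the ribosome is known from yeast and bacterial structures.

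The mutated locus checked the labels of the RNA-seq libraries first, and those of the other libraries were not checked in this way. AT1G30460 stood at 0.542 and 0.593 FPKM in the 2 cpsf70 RNA libraries, against 5.58 and 4.87 FPKM in the 2 Col0 RNA libraries, in the authors' deposited table of 168 selected genes. The poly(A) tables differ in make-up. The Col0 tables list no cluster below 3 TPM in their own library, whereas both cpsf70 tables list the same 29896 nuclear clusters, of which 5944 lie under 3 TPM in replicate 1. From the spacing of the low values, 1 read was worth 0.257 and 0.164 TPM in the cpsf70 libraries and 0.159 and 0.308 TPM in the Col0 libraries, which corresponds to about 3880000 and 6090000 reads for cpsf70 and to 6270000 and 3250000 reads for Col0.

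The 60S genes were among the most abundant transcripts of these seedlings, and their summed levels in the genotypes overlapped. The 40 members together held 7270 and 6271 TPM in cpsf70, against 6485 and 5203 TPM in Col0. In each genotype replicate 1 was the higher library. The median member stood at 166 and 146 TPM in cpsf70, against 146 and 118 TPM in Col0, while the median over all genes lay between 13.1 and 16.6 TPM in the 4 libraries. In Col0, 29 members were at or above 90.1 TPM, the level that 10% of all genes reach, and 6 were below 30 TPM. The highest member in Col0 was AT1G67430, an L17 gene, with 463 and 375 TPM in cpsf70 and 449 and 329 TPM in Col0. In cpsf70 the L10 gene SAG24 (AT1G66580) had the highest mean, with the values given below. The lowest in Col0 was RPL10B (AT1G26910), with 10.6 and 9.19 TPM in cpsf70 and 6.38 and 5.34 TPM in Col0. In cpsf70 the L13a gene AT4G13170 was the lowest by mean, with 5.58 and 5.22 TPM there and 9.24 and 5.13 TPM in Col0.

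**Figure D1:**
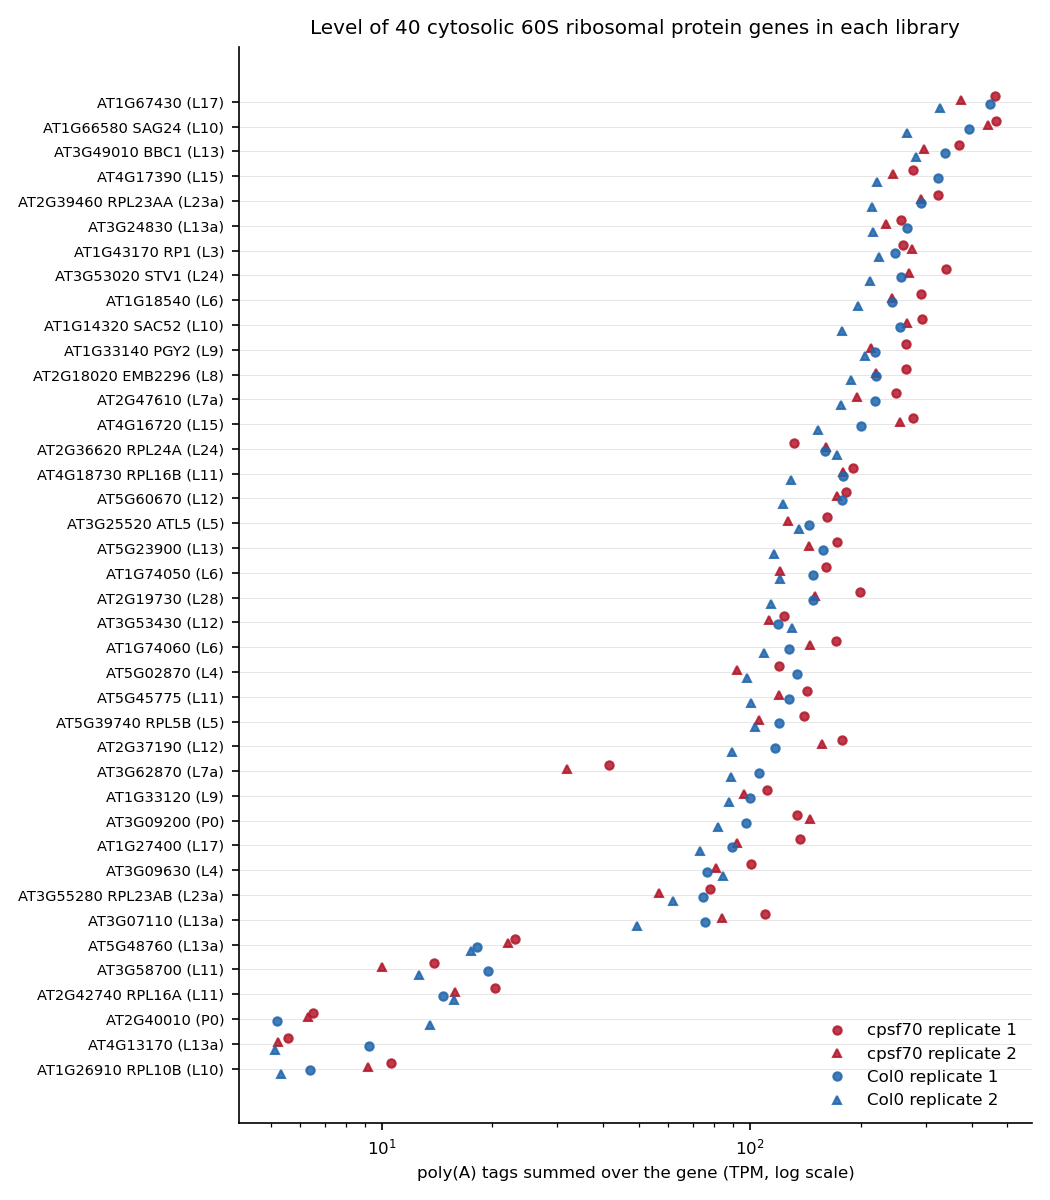
Level of 40 members in each poly(A) library, in TPM on a log axis, ordered by mean level in Col0; red marks are cpsf70, blue marks Col0, circles replicate 1 and triangles replicate 2. Most rows have red marks level with or slightly right of the blue ones, and AT3G62870, an L7a gene, has both red marks (41.5 and 31.8 TPM) far left of the blue ones (106 and 89.1 TPM).

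No member passed the test of level between cpsf70 and Col0. limma on log2(TPM + 1), adjusted by Benjamini-Hochberg over 10036 genes, called 0 of 40 members, where 1.78% of all genes were called. At an unadjusted p under 0.05 there was 1 member, against 6.63% of all genes. By direction, 31 of the 40 (77.5%) had a positive log2 change and 9 a negative one, with a median of 0.19. Over all genes 52.1% were positive with a median of 0.02, and over the 876 genes of at least 100 TPM in Col0 55.0% were positive with a median of 0.05. The SE of 1 gene's change was 0.45, so a change near these medians is not detectable gene by gene. In 15 members (37.5%) both cpsf70 values were above both Col0 values, which held for 18.4% of all genes, and in 1 member (2.5%) both were below, which held for 18.0% of all genes. In the other 24 the groups overlapped.

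The genes of L3, L8 and L10, proteins at the catalytic centre, all had positive changes, as had 77.5% of the 40 members. None was called. RP1 (AT1G43170, L3) had 261 and 276 TPM in cpsf70, against 248 and 224 TPM in Col0, a log2 change of 0.19. EMB2296 (AT2G18020, L8), whose loss arrests embryos, had 265 and 220 TPM in cpsf70, against 220 and 188 TPM in Col0, a change of 0.25. In the L10 family, which joins the subunit late in its assembly in yeast, the groups did not overlap in any of the 3 genes. Both cpsf70 values were above both Col0 values there, as in 37.5% of the 40 members and 18.4% of all genes. SAC52 (AT1G14320) had 293 and 267 TPM in cpsf70, against 256 and 178 TPM in Col0. SAG24, first described as a senescence-associated transcript, had 466 and 443 TPM in cpsf70, against 394 and 267 TPM in Col0. RPL10B, with the values given above, had a change of 0.67 (SE 0.45; limma, Benjamini-Hochberg adjusted p = 1.0), from levels under 11 TPM in every library. That change was 0.45 with a pseudocount of 5 TPM and 0.01 with clusters joined around midpoints.

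Families at the exit tunnel and the 5S RNA had changes between −0.38 and 0.47. The L4 genes AT3G09630 and AT5G02870 had changes of 0.17 and −0.13. The L17 genes AT1G27400 and AT1G67430 had 0.47 and 0.12, and the L23a genes RPL23AA (AT2G39460) and RPL23AB (AT3G55280) had 0.30 and −0.04. Of the L5 genes, which carry the 5S RNA into the ribosome together with L11, ATL5 (AT3G25520) had 0.03 and RPL5B (AT5G39740) 0.12. The 4 L11 genes ran from −0.38 in AT3G58700 to 0.28 in RPL16B (AT4G18730). None of these passed the test.

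Of the 4 largest positive changes, 2 were in a P0 and an L12 gene, again without a call. The stalk base protein P0 is encoded by AT3G09200, which had 134 and 146 TPM in cpsf70, against 97.7 and 81.7 TPM in Col0 (change 0.64, SE 0.45; limma, Benjamini-Hochberg adjusted p = 1.0). The L12 gene AT2G37190, whose protein binds the RNA beneath the stalk, had 178 and 157 TPM in cpsf70, against 117 and 89.6 TPM in Col0 (change 0.70, the highest of the 40). In both genes the groups did not overlap. Without clusters that overlap no cluster of the other genotype, the changes were 0.37 in AT3G09200 and 0.58 in AT2G37190. With clusters joined around midpoints they were 0.16 and 0.58. The other L12 genes had −0.07 (AT3G53430) and 0.26 (AT5G60670), with overlapping groups. The remaining P0 genes were scarce. AT2G40010 had 6.52 and 6.33 TPM in cpsf70, against 5.19 and 13.5 TPM in Col0. AT3G11250 was listed in Col0 only, with 9.08 and 5.23 TPM at its main site, and had no listed cluster in the cpsf70 tables. It therefore entered no test as reported, and was tested only with absent values set to 0 (closing section).

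Of the other families, the L15 gene AT4G16720 had a change of 0.60, with 277 and 255 TPM in cpsf70 and 201 and 153 TPM in Col0. The L6 gene AT1G74060 had 171 and 146 TPM in cpsf70 and 128 and 109 TPM in Col0, a change of 0.42, and the L28 gene AT2G19730 had 199 and 150 TPM in cpsf70 and 148 and 114 TPM in Col0, a change of 0.41. In these 3 genes the groups did not overlap. BBC1 (AT3G49010, L13) had 369 and 297 TPM in cpsf70 and 338 and 282 TPM in Col0, which overlap.

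The single large change among the 40 was in AT3G62870, 1 of the 2 L7a genes, and more of it lies in 1 cluster than in the rest of the gene. Its total over the 1 site in all 4 tables was 41.5 and 31.8 TPM in cpsf70, against 106 and 89.1 TPM in Col0, with no overlap and a ratio of means of 0.375. Over all 6 listed sites the gap was smaller, with 63.9 and 77.9 TPM in cpsf70, against 113 and 89.1 TPM in Col0, and 35.1% and 59.1% of its cpsf70 tags lay outside the main site, against 6.25% and 0% in Col0. The log2 change of −1.40 (SE 0.45) did not pass (Benjamini-Hochberg adjusted p in limma = 0.0829), and it was −0.51 over all listed sites with absent values set to 0 (adjusted p in limma = 0.528). Its other paralogue, AT2G47610, had 249 and 196 TPM in cpsf70, against 219 and 177 TPM in Col0. At the main site of AT3G62870 (TAIR10 chromosome 3, 23242649 to 23242772) the cpsf70 tables list 2 clusters and the Col0 tables list 3. The cluster at its lower coordinates held 25.5 and 19.5 TPM in cpsf70, against 44.7 and 32.0 TPM in Col0. The one at its upper coordinates held 16.0 and 12.3 TPM in cpsf70, against 16.6 and 18.0 TPM in Col0, and in both clusters every cpsf70 value is below every Col0 value. The middle cluster, at 23242696 to 23242744, held 45.1 and 39.1 TPM in Col0, and no cpsf70 cluster overlaps it. Without that middle cluster the totals were 41.5 and 31.8 TPM in cpsf70 and 61.3 and 50 TPM in Col0, still without overlap, and the change was −0.59 (limma on clusters that overlap the other genotype, Benjamini-Hochberg adjusted p = 1.0). Whether reads there were absent or the cluster was left unlisted for another reason was not tested. A CLIP peak covers that stretch in both replicates of the overexpression line (23242693 to 23242755 at a fold of 10.5, and 23242689 to 23242753 at 12.3), and the lower ends of its m6A peaks lie within it, at 23242705 and 23242700. Of the 556 Col0 clusters of at least 10 TPM in all genes that no cpsf70 cluster overlaps, 21.4% lie under a CLIP peak in both replicates, against 25.8% of the 8728 that a cpsf70 cluster overlaps.

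The remaining 60S genes of a wider list gave a similar picture. Of 88 further loci, 78 had a total, 70 of these had a positive change, and the median was 0.28. limma called 1 of the 78, AT3G14600, an L18a gene, which had 3.83 and 12.1 TPM in cpsf70 and 4460 and 12.6 TPM in Col0. That call rests on Col0 replicate 1 alone. The authors' deposited table of 168 genes with changed RNA-seq level holds 1 of the 41 members and 0 of the 88 others. The member is the L13a gene AT3G07110, with 217 and 225 FPKM in cpsf70 and 97.0 and 98.2 FPKM in Col0, an authors' fold of 2.24 and an authors' p of 0.0193. Its poly(A) total was 110 and 84.0 TPM in cpsf70, against 75.4 and 49.3 TPM in Col0 (change 0.65, SE 0.45; limma, Benjamini-Hochberg adjusted p = 1.0). The RNA-seq values of the other 40 members are not analysed here.

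Where the transcripts ended was the next question. Poly(A) clusters within 24 nt of each other on a strand were joined into sites, and each gene's window was its span plus 200 nt past its 3′ end. The 41 members had 184 listed sites, of which 74 (40.2%) were in all 4 tables, against 49.2% of the 25799 sites of all genes. Another 62 sites (33.7%) were listed in both cpsf70 tables and in neither Col0 table, against 15.1% over all genes, and 8 were listed in Col0 alone. Of these 62 sites, 61 lay upstream of the gene's main site, at a median of 753 nt, and they fell in 31 members. They were weak, with medians of 2.70 and 4.51 TPM in the cpsf70 libraries, and 36 were under 3 TPM in replicate 1, which is below the lowest value the Col0 tables hold. If the floor alone kept a cluster out of the Col0 tables, it is limited only to under 3 TPM there. A site that joins several such clusters could hold more, and other reasons for a missing cluster were not tested. The shares of sites over all genes were not matched for level, and the median member stands far above the median gene. How far the difference goes with level was not tested.

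In 24 members 2 or more sites were in all 4 tables, and the 2 most used were compared as log2 of the distal over the proximal site. The change was negative, meaning relatively more use of the upstream site in cpsf70, in 21 of 24 (87.5%), with a median of −0.68. Over all 1941 genes measured 71.9% were negative with a median of −0.41. limma called 0 of the 24, where 0.567% of all genes were called, and 4 had an unadjusted p under 0.05, against 18.4% of all genes. In 8 members (33.3%) both cpsf70 values lay toward the proximal site, which held for 44.5% of all genes, and in 2 (8.33%) both lay toward the distal site, which held for 11.5%. In 22 of the 24 the upstream site was the weaker one, with a median of −0.74. The 430 genes of at least 100 TPM in Col0 of that arrangement had the same median, −0.74, with 89.8% negative. The median over the 24 members was −0.25 without cpsf70 replicate 2, −0.34 without Col0 replicate 2 and −1.11 without cpsf70 replicate 1, so its size rests on single libraries.

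**Figure D2:**
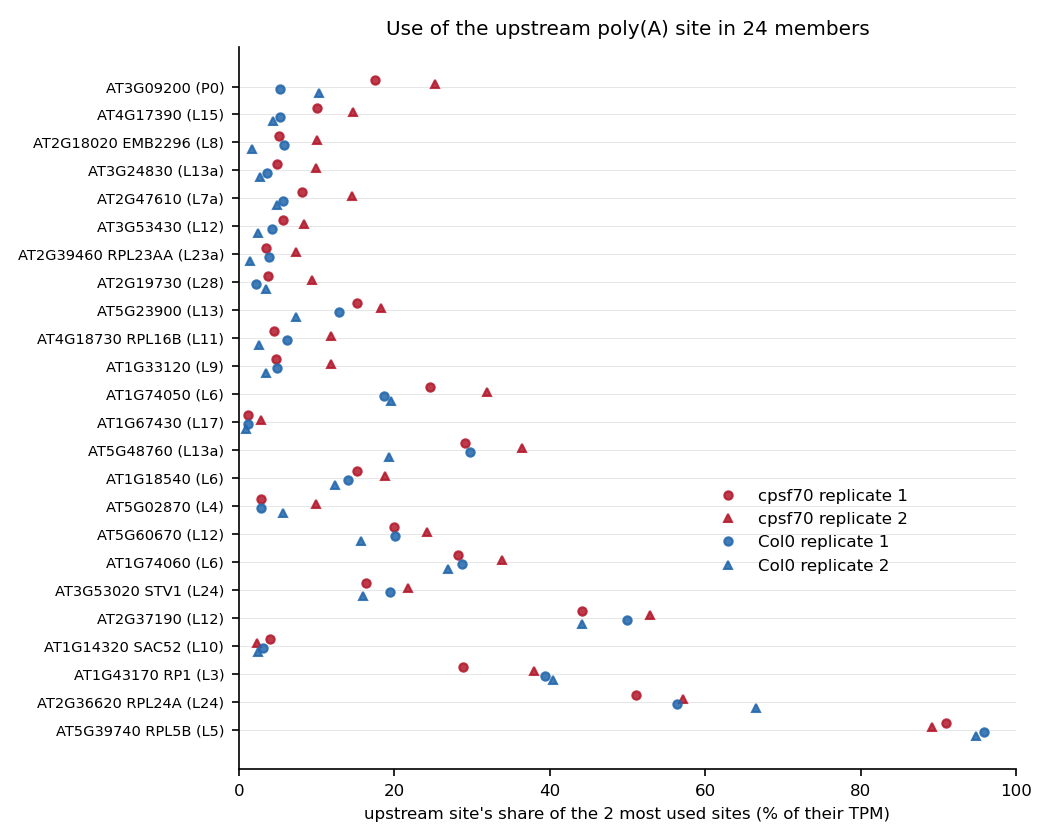
Share of the upstream site among the 2 most used poly(A) sites of 24 members in each library, in percent of their TPM, ordered from the most negative to the most positive change; red marks are cpsf70, blue marks Col0, circles replicate 1 and triangles replicate 2. Red triangles lie right of the other marks in most rows, and P0 (AT3G09200) at the top has 17.5% and 25.3% in cpsf70 against 5.29% and 10.3% in Col0.

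With clusters joined across 24 nt, the P0 gene AT3G09200 had the largest change of site use and the only called site. Its upstream site (chromosome 3, 2824780 to 2825049), 1656 nt before the main one, held 21.7 and 32.9 TPM in cpsf70, against 4.78 and 7.85 TPM in Col0, with no overlap. At the level of single sites limma gave a log2 change of 1.96 (Benjamini-Hochberg adjusted p = 0.00559), and this was the 1 call among 74 member sites (1.35%), where 2.2% of all 13668 sites were called. At an unadjusted p under 0.05 there were 13 member sites (17.6%), against 8.85% of all sites. The main site (2823085 to 2823431) held 102 and 97.4 TPM in cpsf70, against 85.6 and 68.3 TPM in Col0, so the change of use was −1.58 (SE 0.47; limma, Benjamini-Hochberg adjusted p = 0.19). The upstream site joins 6 clusters in each cpsf70 table, of 1.80 to 7.88 TPM each, but 1 cluster of 4.78 TPM in Col0 replicate 1 and 2 of 4.16 and 3.69 TPM in Col0 replicate 2, whose tables hold nothing under 3 TPM. The call ended without cpsf70 replicate 2 (change 1.67) and without Col0 replicate 1 (1.65). Counting only clusters that overlap the other genotype, the site's change was 0.83 (Benjamini-Hochberg adjusted p in limma = 0.84) and the gene's change of use −0.62, smaller than the −1.27 of AT4G17390. The 1 member site called in that setting lay in the L9 gene PGY2 (AT1G33140), with a change of 1.75. Joined around midpoints, the change of use of AT3G09200 was −0.29, and other members then led, with −3.60 in ATL5 (AT3G25520) and 2.31 in the L6 gene AT1G74060.

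The next changes were smaller and of 1 kind, a weak site gaining beside a strong one. In the L15 gene AT4G17390 the upstream site (chromosome 4, 9714458 to 9714548) held 27.4 and 34.1 TPM in cpsf70, against 16.9 and 9.54 TPM in Col0, beside a main site of 198 to 302 TPM. Its share of the pair was 10% and 14.7% in cpsf70, against 5.30% and 4.37% in Col0 (change −1.39, SE 0.38; limma, Benjamini-Hochberg adjusted p = 0.174). The L13a gene AT3G24830 had 4.89% and 9.87% in cpsf70, against 3.58% and 2.71% in Col0, and the L7a gene AT2G47610 had 8.18% and 14.5% in cpsf70, against 5.63% and 4.96% in Col0. In all 3 genes the groups did not overlap. EMB2296 had 5.15% and 10.1% in cpsf70, against 5.80% and 1.64% in Col0, which overlap. RPL5B, whose weak site lies 118 nt downstream of the strong one, moved the other way, with an upstream share of 91.0% and 89.2% in cpsf70 and 95.9% and 94.8% in Col0 (change 1.02, SE 0.36; limma, Benjamini-Hochberg adjusted p = 0.23). With clusters joined around midpoints instead, the changes of AT4G17390, AT2G47610, EMB2296 and RPL5B had the opposite sign, at 0.17, 0.34, 0.54 and −0.60.

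Over the whole list the main sites changed little and the weaker sites were higher. The 40 main sites had a median log2 change of 0.17 with 29 positive. The other 34 member sites in all 4 tables had a median of 0.77 with 31 positive, and 1 of them was called. The 849 other genes of at least 100 TPM had the same split, with a median of 0.00 over 847 main sites and of 0.68 over 888 weaker sites, of which 81.0% were positive, against 91.2% of the 34. The share of all member tags outside the main site was 14.8% and 23.7% in cpsf70, against 12.0% and 9.13% in Col0. Those other abundant genes had 6.83% and 9.90% in cpsf70, against 5.55% and 3.72% in Col0. Within sites of all 4 tables, the members had 9.96% and 14.2% in cpsf70, against 9.43% and 8.81% in Col0, but such a site can still join more clusters in one table than in another. With clusters that overlap the other genotype only, the members had 13.7% and 19.1% in cpsf70, against 13.4% and 11.6% in Col0. In each of these comparisons both cpsf70 shares were above both Col0 shares. cpsf70 replicate 2 stood highest, while cpsf70 replicate 1 lay close to Col0 replicate 1. In each genotype the library with more reads had the larger share, and the part of depth in the result was not tested.

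**Figure D3:**
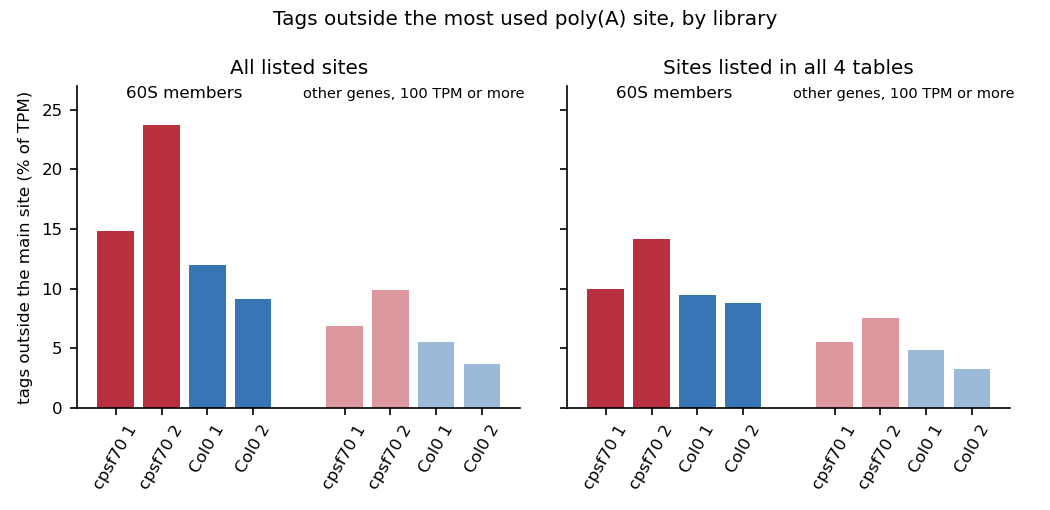
Percent of summed TPM outside each gene's main poly(A) site in the 4 libraries, for the 60S members (dark bars) and for 849 other genes of at least 100 TPM in Col0 (pale bars), over all listed sites (left) and over sites listed in all 4 tables (right). Red bars are cpsf70 and blue bars Col0; the members stand higher than the other genes in every library, and cpsf70 replicate 2 is the highest bar of each set.

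Some members are split between ends in both genotypes. RPL24A (AT2G36620) had its most used site inside the gene (chromosome 2, 15351194 to 15351221), with 55.4 and 74.6 TPM in cpsf70 and 80.1 and 107 TPM in Col0. Its distal site (15350337 to 15350451) had 53.0 and 55.9 TPM in cpsf70 and 62.0 and 53.6 TPM in Col0. The L12 gene AT2G37190 had 44.1% and 52.9% of its pair at the upstream site in cpsf70, against 49.9% and 44.1% in Col0. RP1 had 28.8% and 38.0% in cpsf70, against 39.4% and 40.4% in Col0. The listed sites of these genes thus lay far apart, 814 nt in RPL24A and 1882 nt in RP1, without a called difference between genotypes.

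In most families the share of the leading paralogue differed little between the genotypes. For each of the 15 families with several loci, the share of the family's tags held by the locus highest in Col0 was compared. In 10 of 15 it differed by under 5 percentage points between the genotype means. Also in 10 of 15, not all the same ones, the shares of the genotypes did not overlap, in either direction. The leading share can miss shifts among the others. In L12, AT2G37190 held 36.8% and 35.6% in cpsf70, against 28.2% and 26.2% in Col0, while the leading AT5G60670 had overlapping shares. A family here means its loci on the list: L3, L8, L9, L13 and L28 have further loci in the wider list, such as AT4G10450 of L9 with 49.2 and 34.7 TPM in cpsf70 and 48.3 and 45.0 TPM in Col0. With 2 libraries against 2, an exact permutation test cannot go below p = 0.333, so the shares are given as values. The summed level of the family was higher in cpsf70 in 16 of 18 families, and the ratio of means ran from 0.878 in L7a to 1.48 in P0. Both ends of that range depended on the setting. Without clusters that overlap no cluster of the other genotype, the ratio was 0.999 in L7a and 1.23 in P0. In that setting L4 had 0.99, and L10 and L28 each had 1.32. With absent values set to 0, the ratio was 1.02 in L7a and 1.57 in P0.

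**Figure D4:**
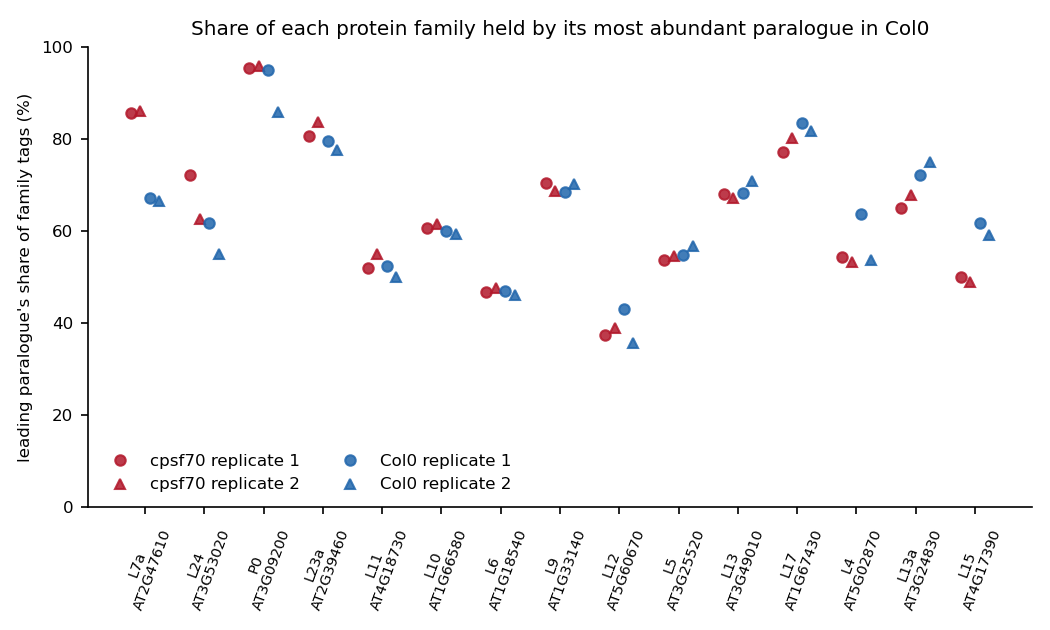
Share of a family's poly(A) tags, counted over the listed loci, held by the paralogue that is highest in Col0, in percent, for the 15 families with several loci; red marks are cpsf70, blue marks Col0, circles replicate 1 and triangles replicate 2. L7a at the left has 85.7% and 86.0% in cpsf70 against 67.3% and 66.5% in Col0, and L15 at the right has 50.1% and 48.9% in cpsf70 against 61.7% and 59.2% in Col0.

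L7a had the largest difference over sites of all 4 tables, though not under every setting. AT2G47610 held 85.7% and 86.0% of the L7a tags in cpsf70, against 67.3% and 66.5% in Col0, a difference of 19.0 points that includes the middle cluster of AT3G62870 and was 7.5 points without unmatched clusters, where L15 had −11.1 and L24 9.18. With absent values set to 0 it was 10.3 points, where P0 had 13.9 and L15 −11.3. In L15, AT4G17390 held 50.1% and 48.9% in cpsf70, against 61.7% and 59.2% in Col0, while AT4G16720 had 277 and 255 TPM in cpsf70, against 201 and 153 TPM in Col0. In L24, STV1 (AT3G53020), which affects reinitiation after upstream open reading frames and the patterning of the gynoecium, held 72.1% and 62.6% in cpsf70, against 61.7% and 55.0% in Col0. That difference of 9.02 points was 4.25 without cpsf70 replicate 1 and 5.65 without Col0 replicate 2. The level of STV1 was 340 and 270 TPM in cpsf70, against 258 and 212 TPM in Col0, while that of RPL24A was 132 and 161 TPM in cpsf70, against 160 and 173 TPM in Col0. In L13a, AT3G24830 held 65.0% and 67.8% in cpsf70, against 72.2% and 75.0% in Col0. The L10 family was steady, with SAG24 at 60.6% and 61.6% in cpsf70, against 60.1% and 59.4% in Col0. In P0, AT3G09200 held 95.4% and 95.8% in cpsf70, against 95.0% and 85.8% in Col0. The lower Col0 share comes with the 13.5 TPM of AT2G40010 in that library, a gene of uncertain strand. These shares leave out AT3G11250, which was listed in Col0 only. Over all listed sites, with absent values set to 0, AT3G09200 held 95.2% and 95.1% in cpsf70, against 87.8% and 74.7% in Col0. The 2 L9 genes on the list, AT1G33120 and PGY2 (AT1G33140), are uncertain, because 3 of 8 and 4 of 8 clusters of AT1G33120 in cpsf70 and 2 of 6 in Col0 replicate 1 have a counterpart of the same width and of a value within 0.2 TPM at the same distance in PGY2.

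m6A peaks covered nearly all members. In Col0, 39 of 41 members (95.1%) had an m6A peak in both replicates, against 68.9% of 849 other genes of at least 100 TPM and 71.8% of the other 9996 genes with a total. In 36 members (87.8%) a peak lay on the main poly(A) site in both replicates, against 59.8% and 61.6% of those genes. The exceptions were the L12 gene AT5G60670, with no peak in either replicate, and RPL10B, with a peak in replicate 2 alone (fold 2.44). The median member peak was lower than the median of all peaks. Its fold, as the authors' caller gave it, was 2.76 and 2.69 in the 2 replicates, against 4.23 and 5.73 over all peaks. Across members the fold ran against the level, with Spearman's rho of −0.58 (n = 38) and −0.53 (n = 39) across genes, and among other genes it was −0.45 and −0.46. Genes of 1 library share its depth and are not independent replicates.

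The 5 members with the highest m6A folds were all scarce ones. AT2G40010, a P0 gene, had folds of 7.5 and 16.0, at a peak about 2 kb from its only site in all 4 tables, and its strand was taken from tags inside the gene and is uncertain. RPL16A (AT2G42740, L11) had 3.94 and 5.79, and AT3G58700, also L11, had 2.95 and 4.90. The L13a genes AT4G13170 and AT5G48760 had 3.73 and 4.26, and 3.37 and 4.38. The peak of AT4G13170 also touches the neighbouring gene AT4G13160, and the peaks carry no strand, so the 2 genes cannot be told apart there. Their poly(A) totals ran from 5.13 to 23 TPM over the 4 libraries.

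CLIP peaks of FLAG-CPSF70 were found on 31 of 41 members (75.6%) in both replicates, not always at the same place, and all 31 also had m6A peaks in both. Among the 849 other genes of at least 100 TPM the share was 71.8%, so at this level the members were close to other abundant genes, while over all genes it was 44.2%. On the main poly(A) site itself a CLIP peak lay in both replicates in 28 members (68.3%), against 53.8% and 21.7% of those genes. The middle of the peaks lay a median of 30 and 22 nt upstream of the middle of the main site, whereas m6A peaks, which are several times longer, were centred 178 and 110 nt upstream. Of the CLIP peaks, 34 of 54 and 40 of 51 overlapped an m6A peak. The folds did not follow the level across members, with Spearman's rho of 0.09 and −0.03 (n = 34 each).

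**Figure D5:**
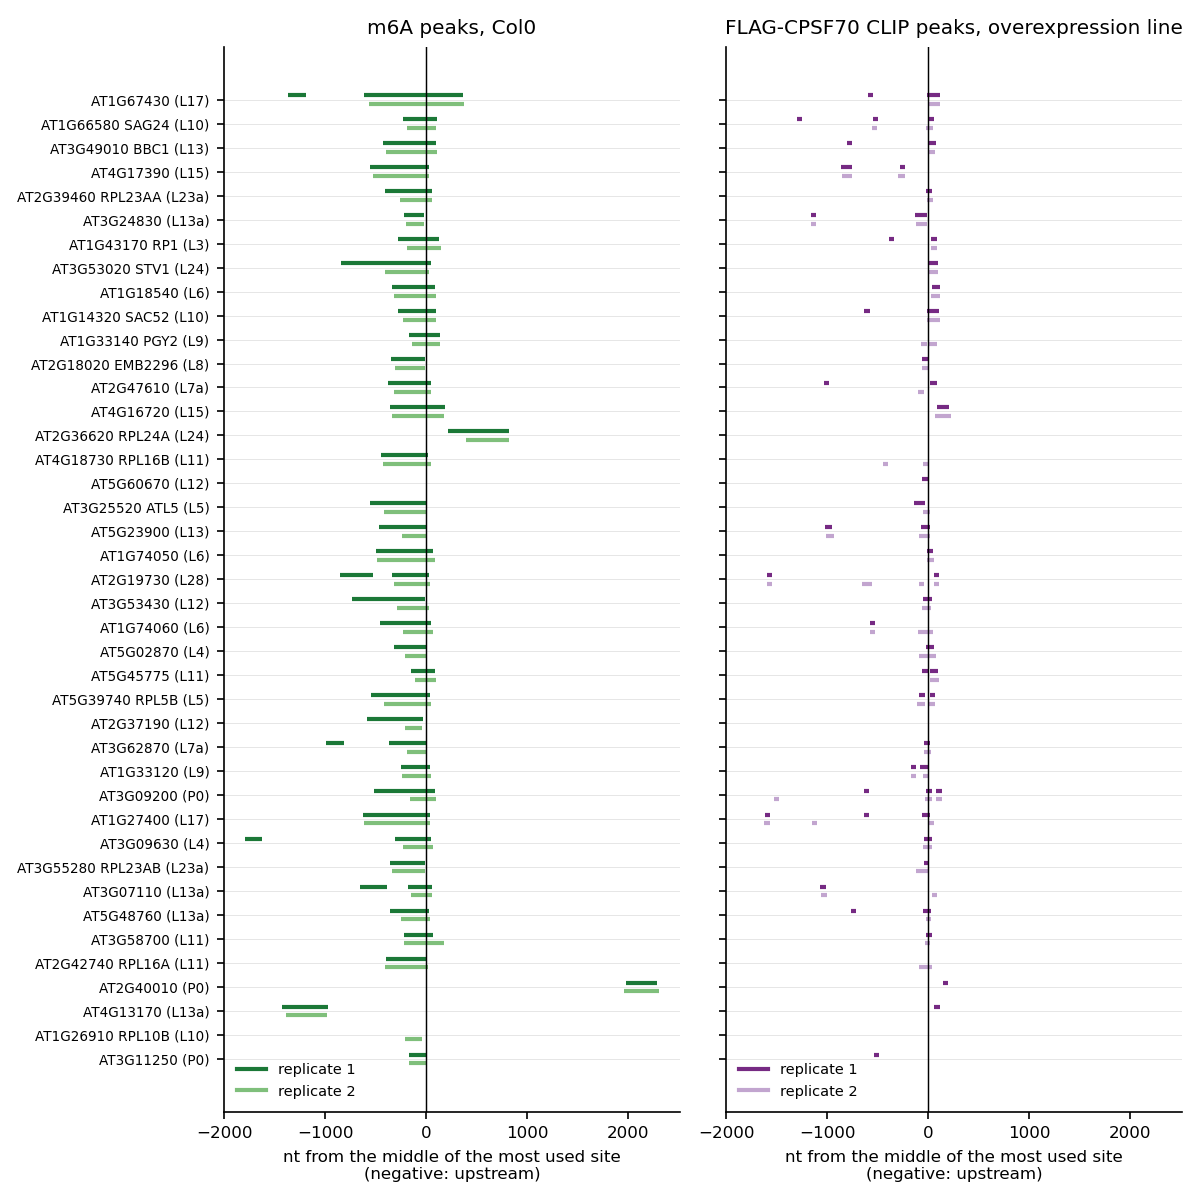
Position of m6A peaks in Col0 (left) and FLAG-CPSF70 CLIP peaks in the overexpression line (right) relative to the middle of each member's most used poly(A) site, in nt, with dark bars for replicate 1 and light bars for replicate 2; members run from the highest to the lowest mean level in Col0. Most rows have a long m6A bar that ends near 0 and a short CLIP bar at 0, and RPL24A has its m6A bars downstream of 0 and no CLIP bar.

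The strongest CLIP peaks sat at gene ends. The L6 gene AT1G74050 had folds of 11.6 and 14.1 (chromosome 1, 27847070 to 27847131 and 27847069 to 27847136). BBC1 (AT3G49010), the major L13 gene, had 11.3 and 12.0 (chromosome 3, 18166832 to 18166910 and 18166837 to 18166910). AT3G62870 followed with 10.5 and 12.3, the L6 gene AT1G18540 with 10.7 and 10.9, and STV1 with 8.65 and 11.8, and each of these 5 peaks lay on the main poly(A) site. Their poly(A) levels did not share a direction, with log2 changes of 0.06, 0.10, −1.40, 0.28 and 0.37 in that order.

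Paralogues of 1 protein could differ in their peaks. In L24, STV1 had the strong CLIP peak just given and RPL24A none in either replicate. The m6A peaks of RPL24A (chromosome 2, 15350390 to 15350990 and 15350394 to 15350816, folds of 3.03 and 3.49) lay on its distal site and not on its most used one. In L7a, the CLIP folds were 10.5 and 12.3 in AT3G62870 and 3.69 and 4.54 in AT2G47610, where the peaks of the 2 replicates lay apart, with m6A folds of 2.88 and 2.57, and 2.88 and 2.80. In L10, SAC52 had CLIP folds of 2.1 and 2.71 at its main site and SAG24 3.31 and 5.15, while RPL10B had none. In P0, AT3G09200 had 2 peaks at its main site in both replicates, with folds of 5.62 and 5.09 and of 5.01 and 6.53, and the 2 scarce genes had a CLIP peak in 1 replicate alone. CLIP replicates are numbered by the sample titles, and names inside the deposited CLIP tables number them the other way round. The sources used here do not state the control behind the CLIP folds, so a fold is read only within its own list.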

How the data were processed

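The members and the gene lists were chosen with earlier results of these data known. Poly(A) clusters, their positions and their TPM values are the authors' deposited values, and so are the m6A and CLIP peak lists with their fold, −log10 p-value and −log10 q-value. FPKM, fold and p-value of 168 genes are from the authors' deposited table, whose highest p is 0.0497. Per the submitters' processing notes, the tools were MACS2 2.2.5, HISAT2 2.1.0 and cutadapt 1.18 on TAIR10, with no parameters. 7 kinds of sample make up the 14 samples, and the Col0 CLIP samples are not analysed here.

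Nuclear clusters of the 4 poly(A) tables on the same strand were merged across gaps of up to 24 nt. Gene spans and names came from RefSeq's TAIR10.1 table and were used only to assign sites and peaks. A gene's strand was taken from the tags at its ends (the outer 40% of the span and 200 nt past it) or, failing that, where 90% of inner tags shared a strand, which applied to 1 member, AT2G40010. Totals and site pairs used sites in all 4 tables. Tests used limma 3.58.1 (R 4.3.3) on log2(TPM + 1), empirical Bayes, Benjamini-Hochberg over all features, threshold 0.05, after a check on simulated data. A log2 change understates that of low sites. Of the values, 71.0% to 85.4% were whole reads within 0.01, so no count test was run. Peaks were assigned by an overlap of at least 1 nt with the span.

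Named loci were the 6 with the largest change of level and of site use, the highest and lowest, the paralogues of the 4 families with the largest difference in share and of L10, L24 and P0, and the 5 with the highest m6A and CLIP folds. Others named were chosen after their values were seen. No sequences or motifs are given, as no genome was used here. Alternatives are in the closing section; 2 were chosen after seeing the data, a 3 TPM floor on cpsf70 replicate 1 and leaving out clusters that overlap no cluster of the other genotype.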

Additional observations from a re-analysis of the deposited data

How the results depend on the processing

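The count of members called for level, 0 as reported, was 1 with a pseudocount of 5 TPM, with median-ratio rescaling, with robust empirical Bayes and with the 3 TPM floor on cpsf70 replicate 1 (AT3G62870 each time, log2 change −1.31, −1.46, −1.40 and −1.40; limma, Benjamini-Hochberg adjusted p = 0.0211, 0.0494, 0.00776 and 0.0346). Its change shrank to −0.51 with absent values set to 0, −0.59 with midpoint joining and −1.05 with 50 nt joining, none called. The count of members was also 1 with absent values set to 0 (AT3G11250, −3.28) and with midpoint joining (AT3G07110, 2.82). When 1 library was left out, the change of AT3G62870 ran from −1.58 to −1.21. For site use 0 became 7 with midpoint joining, while calls over all genes went to 568, against 11 as reported. For single sites 1 member call, among 301 over all sites, became 5 (of 653) with a pseudocount of 0.1 TPM, 2 (of 332) with 5 TPM, 39 (of 4803) with absent values set to 0, 0 (of 34) with rescaling, 2 (of 320) with 50 nt joining, 5 (of 475) with midpoints and 7 (of 572) with robust empirical Bayes, and 0 to 2 when 1 library was left out. With the replicate block 0 of all sites were called. Calls over all genes then went from 179 to 1 for level and from 11 to 70 for site use, with 0 members called in each. Deviations of equal numbers correlated at 0.254 in 2 pairs, which does not show pairing. The call of the P0 upstream site also ended with rescaling (1.90), with absent values set to 0 (1.96) and with the replicate block (1.96). It ended without unmatched clusters too, where the 1 member call (of 155) was a site of PGY2 (chromosome 1, 12024449 to 12024591). That site had a change of 1.75 (limma, Benjamini-Hochberg adjusted p = 0.0358). Members with a higher level in cpsf70 numbered 24 to 35 when 1 library was left out; that moved the median of all genes to between −0.13 and 0.19, and the members' median stayed 0.14 to 0.19 above it. Signs turned for the level of AT1G67430 without cpsf70 replicate 1 (−0.04) and without Col0 replicate 2 (−0.11), for the use of AT4G17390 (0.17), AT2G18020 (0.54), AT2G47610 (0.34) and AT5G39740 (−0.60) with midpoints, and of AT5G39740 with absent values set to 0 (−2.39). The leading paralogue's difference in L7a was 10.3 points with absent values set to 0, 15.8 with 50 nt joining, 7.5 without unmatched clusters and 18.5 to 19.3 without 1 library. In L24 it was 4.25 to 13.7 without 1 library. In L10 it was 0.477 with absent values set to 0 and −0.23 with 50 nt joining, and in P0 13.9 with absent values set to 0 and 0.60 to 9.80 without 1 library. Members with a CLIP peak in both replicates fell to 9 at −log10 p of at least 10. The cause of these shifts was not tested. With 3250000 to 6270000 reads and 2 libraries per genotype, changes of level near the SE of 0.45 on the log2 scale could not be called. A change well above that SE, the −1.40 of AT3G62870, was not called as reported either (limma, Benjamini-Hochberg adjusted p = 0.0829).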
